A study of Danio rerio with 12 samples.

Results

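The miRNAs examined here carry numbers that were mostly first given to zebrafish or other fish hairpins: miR-722 to miR-740, miR-1388 and miR-2184 to miR-2198. They were chosen by their names in the deposited tables, any arm included, and not by their values, though earlier results of these data were known. Of the 35 numbers, 29 were listed, as 54 arms among 464 miRNA features. Both arms were listed for 25 hairpins and the starred arm alone for miR-735, miR-740, miR-2186 and miR-2193. No hairpin copies had to be merged among them. miR-739 and miR-2194 to miR-2198 were not analysed here.

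Small RNA was sequenced from whole embryos of zebrafish, TL wild type, taken 36 or 60 hours post fertilisation (hpf). The embryos were given TCDD, the dioxin best known as an agonist of the aryl hydrocarbon receptor, or only its solvent DMSO. The 4 groups, DMSO and TCDD at 36 hpf and DMSO and TCDD at 60 hpf, have 3 libraries each. Dose, hours of exposure and the number of pooled embryos are not given in the labels, nor is it said whether replicates came from separate clutches, so p-values reflect the spread among these libraries, which may be technical. Depth ran from 459634 to 4210840 miRNA counts per library, and the 36 hpf TCDD libraries were the shallowest as a group. Levels are CPM, miRNA counts scaled to a common library size with TMM. In whole embryos, a lower level from fewer cells of a type cannot be told apart from less RNA per cell.

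A miRNA is cut as a short duplex from a hairpin, and 1 of its arms usually guides the silencing of target mRNAs while the other, starred in older names, is degraded. Many miRNAs are shared by all vertebrates and are abundant, whereas those found first in one lineage tend to be low and restricted to few tissues. Many lie within protein-coding genes and can be transcribed with them. In zebrafish, miR-722 is known to restrain neutrophil migration, miR-731 is transcribed with miR-462 in a cluster induced by hypoxia and interferon in fish, and miR-2188 has been linked to vessel growth.

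The RefSeq gene table of the GRCz12tu assembly held 27 of the 29 hairpins. It lists miR-2184 and miR-2190 under no such name. The build behind the count tables is not given, so the table was used for names and neighbours only, and its strand is not given. For 4 hairpins an opsin gene, of a cone or of other tissues, was near or enclosed them. The hairpin of miR-726 has opn1sw2 (blue cone opsin) and opn1lw1 (red cone opsin) as its nearest coding genes. miR-729 lies near opn1sw1, the ultraviolet cone opsin gene. Cones first appear in the zebrafish retina within this span of development. miR-727 and miR-728 both lie within the bounds of tmtopsb, a multiple-tissue opsin, and are each other's nearest miRNA. Muscle genes enclose miR-736 (myh7, a myosin heavy chain), miR-2192 (pvalb3, a parvalbumin) and miR-735 (mybpc2b, a myosin binding protein). miR-2188 lies within ank1a, an ankyrin gene whose mammalian counterpart supports the red cell membrane. miR-2187 lies within chrm3a, a muscarinic acetylcholine receptor, and miR-734 within epha6, an ephrin receptor.

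For 3 hairpins the table points to other kinds of RNA. The locus of miR-735 carries the symbol rny2, a Y RNA, and miR-733 has the synonym vtrna4, a vault RNA. miR-738 overlaps an annotated rRNA gene. miR-2185 has 3 loci, of which pimr60 and pimr62, kinases related to pim, enclose a copy each. How reads of these copies were divided is not known, so its counts are uncertain.

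Most of these arms were rare. Over the 12 libraries their median level was 11 CPM, against 96.7 CPM for all 464 features. Only 8 arms averaged 100 CPM or more, and 27 were listed in all 12 libraries. A count of 0 allows up to 7.42 CPM in the shallowest library, 36 hpf TCDD replicate 3, and up to 0.573 CPM in the deepest, 60 hpf TCDD replicate 3 (3 counts, counting error only). Of the 54 arms, 37 were abundant enough to be tested (68.5%, against 88.4% of all features). The 17 others had at most 99 counts in all libraries together.

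**Figure D1:**
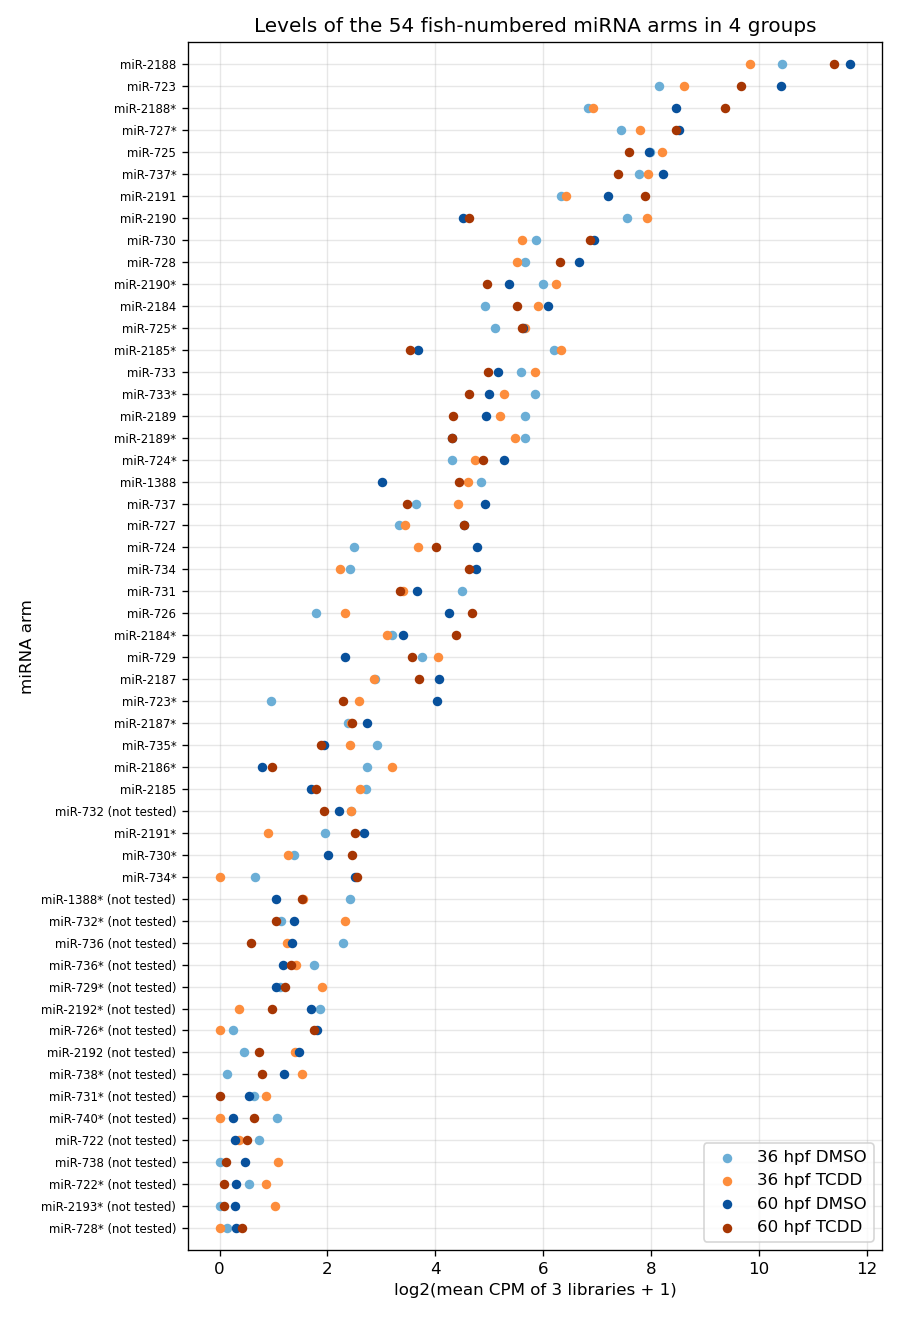
Mean level of each of the 54 arms in each group, as log2(CPM + 1), ordered by the mean over 12 libraries. Points are means of 3 libraries without error bars. miR-2188 leads in every group, and the points of 36 and 60 hpf lie far apart for miR-2190, miR-2185* and miR-2186*.

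miR-2188 was the most abundant of these arms in every library, at 2077 CPM over all and rank 83 of 464 features. It stood at 1054, 1438 and 1664 CPM in 36 hpf DMSO embryos and at 714, 1280 and 759 CPM in 36 hpf TCDD embryos. At 60 hpf it stood at 3324, 3483 and 3167 CPM with DMSO and at 2484, 2732 and 2823 CPM with TCDD. All 6 libraries of 60 hpf lay above all 6 of 36 hpf. Next came miR-723 at 712 CPM, miR-2188* at 312 CPM, miR-727* at 278 CPM, miR-725 at 247 CPM and miR-737* at 232 CPM. The last 3 do not differ beyond their spread, since miR-737* alone ranged from 30.2 to 475 CPM. Even its 36 hpf DMSO libraries covered that whole range.

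The arms together made up 0.311% ± 0.0185 of miRNA counts in 36 hpf DMSO embryos (SD, n = 3) and 0.288% ± 0.0127 in 36 hpf TCDD embryos. At 60 hpf their share was 0.684% ± 0.0888 with DMSO and 0.712% ± 0.0560 with TCDD. In summed CPM this was 3380 ± 68.5 and 3237 ± 220 at 36 hpf, and 6885 ± 914 and 5793 ± 435 at 60 hpf. The groups of 36 and 60 hpf do not overlap in this sum. Without its 2 largest parts, miR-2188 and miR-723, the sum overlapped between the times, at 1425 to 2217 CPM over the 36 hpf libraries and 1902 to 2575 CPM over those of 60 hpf. The gap between the times in the whole sum thus lay mostly in these arms.

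Between 36 and 60 hpf, 12 arms changed in DMSO or TCDD embryos, 8 upwards and 4 downwards. In DMSO embryos 6 of 37 tested arms rose and 4 fell (edgeR quasi-likelihood test, adjusted p under 0.05). Over all 410 tested miRNAs, 12.7% rose and 5.61% fell. In TCDD embryos 4 rose and 3 fell, where 12.7% of all tested miRNAs rose and 8.78% fell. The split depended on scaling. With upper quartile scaling 3 arms rose and 5 fell in DMSO embryos, where 16.1% of all miRNAs were called in either direction. With total count scaling 10 rose and 2 fell in TCDD embryos, where 26.8% of all miRNAs were called. DESeq2 called 17 arms in DMSO embryos, where it called 29.3% of all miRNAs, and 13 in TCDD embryos, where it called 33.2%. The median log2 fold change of the 37 arms was 0.84 in DMSO and -0.04 in TCDD embryos, beside 0.08 in both for all 410 miRNAs. Taken arm by arm, the difference between the treatments was smaller, with a median of -0.19 beside -0.07 over all miRNAs. It was positive for 16 arms and negative for 21. Rising arms without overlap between the libraries of the 2 times numbered 11 in DMSO (25.4% over all miRNAs) and 10 in TCDD embryos (22.9%). Falling arms without overlap numbered 7 (17.1% over all) and 6 (17.6%). The arms called in both treatments were miR-2188, miR-726, miR-2190, miR-2185* and miR-2186*.

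**Figure D2:**
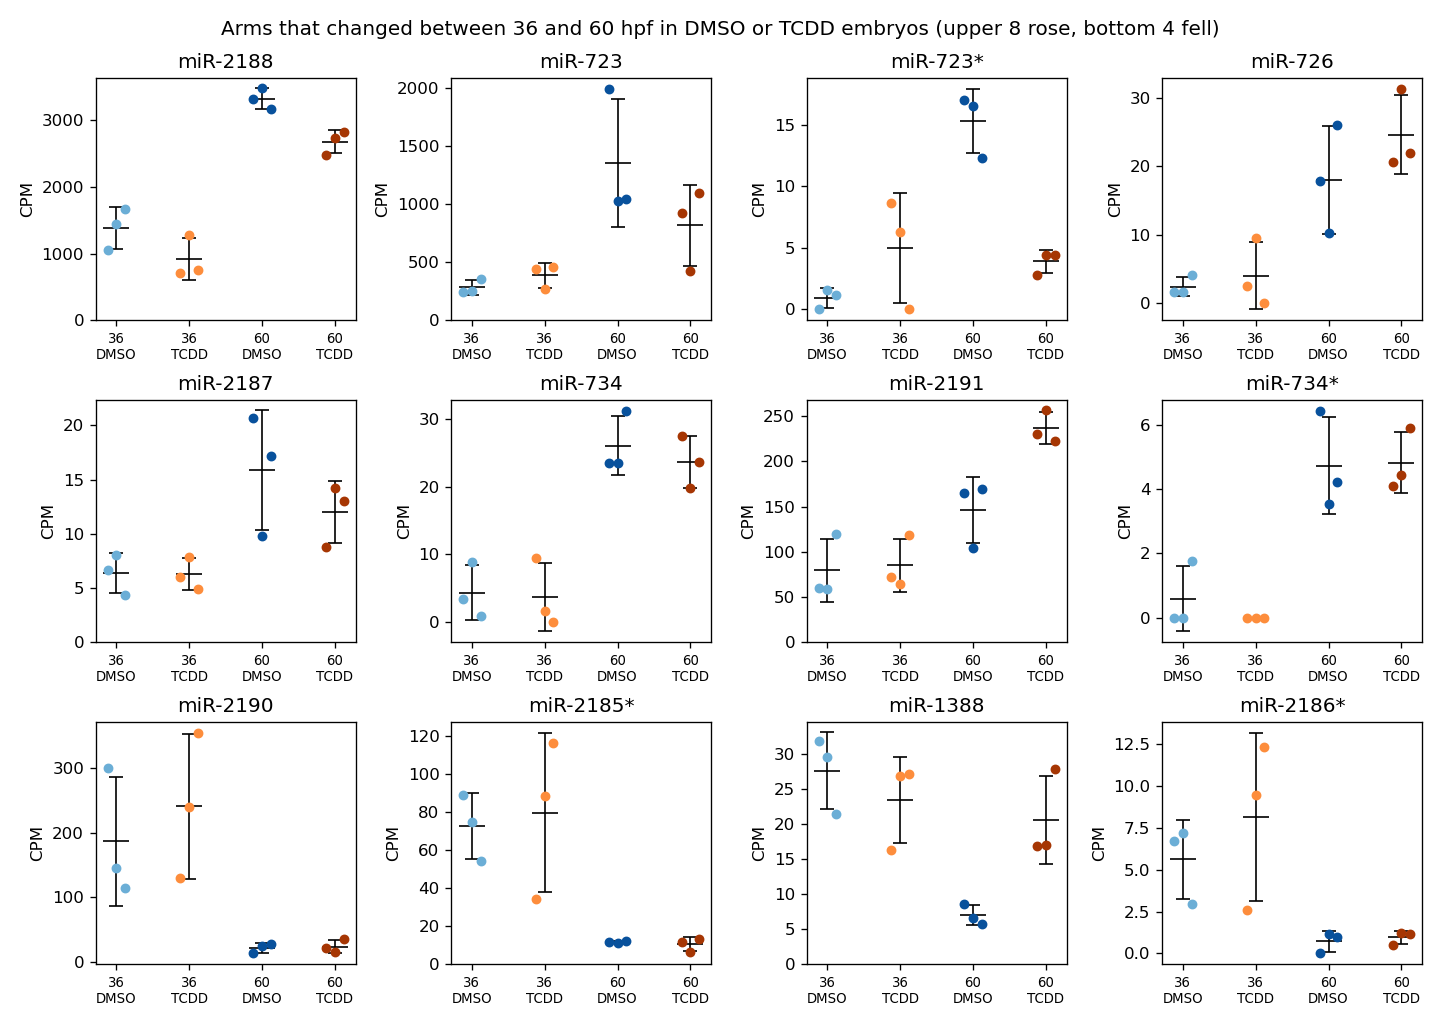
CPM of the 12 arms that changed between 36 and 60 hpf in at least 1 treatment. Points are libraries, the dash and bar are mean and SD of 3, and each panel has its own axis. miR-2190 and miR-2185* drop at 60 hpf in both treatments, while miR-1388 is low in the 3 libraries of 60 hpf DMSO embryos.

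miR-2188, the arm linked to vessels, rose by 1.26 on the log2 scale (SE 0.30, edgeR adjusted p = 0.0138) in DMSO and by 1.55 (SE 0.30, adjusted p = 0.00514) in TCDD embryos, with the levels given above. Its other arm, miR-2188*, had 113 ± 104 and 351 ± 216 CPM at the 2 times in DMSO embryos (SD, n = 3 each), and 121 ± 85.2 and 665 ± 295 CPM in TCDD embryos. The starred arm passed the test in neither, and only its TCDD libraries were without overlap. In TCDD embryos DESeq2 and edgeR's likelihood ratio test called this starred arm. There edgeR also called it with total count scaling and without 36 hpf DMSO replicate 1. The call of miR-2188 in DMSO embryos ended without 36 hpf DMSO replicate 1 (0.115) or 2 (0.0998) or 60 hpf TCDD replicate 2 (0.0540), as adjusted p, and with upper quartile scaling (0.107).

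miR-723, whose function is not well described, stood at 242, 255 and 356 CPM in 36 hpf DMSO embryos and rose to 1997, 1026 and 1048 CPM at 60 hpf. This log2 fold change was 2.25 with an SE of 0.44 (edgeR adjusted p = 0.00471). In TCDD embryos it stood at 439, 267 and 462 CPM, then at 930, 425 and 1101 CPM. The groups overlapped there, and the log2 fold change of 1.07 (SE 0.42) did not pass (edgeR adjusted p = 0.0939). Without 60 hpf TCDD replicate 2, the library at 425 CPM, edgeR called this rise as well. With all libraries kept, DESeq2 called it, and so did edgeR with total count scaling. The difference of the rise between the treatments was -1.18 (SE 0.59) and did not pass (edgeR adjusted p = 0.871).

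Of the visual gene neighbours, miR-726 rose in both treatments. It stood at 1.68, 1.60 and 4.11 CPM in 36 hpf DMSO embryos and at 17.9, 10.2 and 25.9 CPM at 60 hpf (log2 fold change 2.66, SE 0.68, edgeR adjusted p = 0.0208). With TCDD it went from 2.59, 9.47 and 0 CPM to 20.6, 31.2 and 22 CPM (2.54, SE 0.71, adjusted p = 0.0278). Every library of 60 hpf lay above every library of 36 hpf, and only 26 counts lay behind the 6 libraries of 36 hpf. miR-726 reached the level needed for testing in enough libraries only at 60 hpf, which limits its p-values. The call in DMSO ended without replicate 1 or 2 of 36 hpf DMSO or replicate 3 of 60 hpf DMSO (adjusted p = 0.0872, 0.103 and 0.0690). That in TCDD ended without 36 hpf TCDD replicate 1 or 3 or 60 hpf TCDD replicate 2 (adjusted p = 0.116, 0.0614 and 0.0740). The arm miR-726* was listed in 7 libraries and not tested.

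The other hairpins by opsin genes passed edgeR's quasi-likelihood test with TMM and all libraries in neither treatment. Total count scaling, which called 19.3% of all miRNAs in DMSO and 26.8% in TCDD embryos, called miR-727* in both and miR-728 in TCDD embryos. DESeq2 called miR-727*, miR-728 and miR-729 in DMSO and miR-728 in TCDD embryos. Without both TCDD libraries numbered 3, edgeR called miR-728 in DMSO embryos. miR-727* went from 174 ± 8.21 to 366 ± 123 CPM in DMSO embryos (SD, n = 3 each) without overlap, and from 222 ± 96.2 to 351 ± 94.0 CPM with overlap in TCDD embryos. Its neighbour miR-728 went from 50 ± 12 to 99.9 ± 15.7 CPM in DMSO and from 44.5 ± 12.9 to 79.0 ± 20 CPM in TCDD embryos, without overlap in both. miR-729, near the ultraviolet opsin gene, went the other way in DMSO embryos, from 15.1, 12 and 10.3 CPM to 4.19, 7.46 and 0.324 CPM. In TCDD embryos it had 9.49, 22.1 and 14.8 CPM, then 10.5, 9.73 and 12.2 CPM, with overlap (log2 fold change -0.48, SE 0.68).

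The arms within receptor genes of the nervous system were low at 36 hpf. miR-734 stood at 3.36, 8.82 and 0.881 CPM in 36 hpf DMSO embryos and rose to 23.5, 23.6 and 31.1 CPM (log2 fold change 2.68, SE 0.82, edgeR adjusted p = 0.0431). In TCDD embryos it went from 9.49, 1.58 and 0 CPM to 27.5, 19.9 and 23.7 CPM without overlap, and the log2 fold change of 2.35 (SE 0.83) did not pass (edgeR adjusted p = 0.0662). Its other arm miR-734* was listed at 0 in all 3 TCDD libraries of 36 hpf and at 4.12, 4.46 and 5.92 CPM at 60 hpf (edgeR adjusted p = 0.0199). Set against 3 counts pooled over the 36 hpf group, the pooled 60 hpf level is 3.66-fold higher, counting error only. This fold leaves out the spread between libraries. In the single 36 hpf TCDD libraries, 3 counts are 2.59, 4.74 and 7.42 CPM, in part above the 60 hpf levels. miR-734* reached the level needed for testing only in libraries of 60 hpf, which limits its p-values. miR-734 reached that level in enough libraries only at 60 hpf, so its p-values have the same limit. In DMSO embryos miR-734* went from 0, 0 and 1.76 CPM to 6.43, 3.54 and 4.22 CPM, also without overlap, and did not pass (edgeR adjusted p = 0.0680). miR-2187, in the muscarinic receptor gene, rose from 6.71, 8.02 and 4.40 CPM to 20.7, 9.82 and 17.2 CPM in DMSO embryos (1.36, SE 0.40, edgeR adjusted p = 0.0382). In TCDD embryos its log2 fold change of 0.90 (SE 0.43) did not pass, at 6.04, 7.89 and 4.94 CPM and then 8.74, 14.2 and 13 CPM. The difference of these changes between the treatments was -0.33 (SE 1.15) for miR-734 and -0.46 (SE 0.59) for miR-2187. Neither passed (edgeR adjusted p = 0.994 for each). The DMSO call of miR-734 held only when the library left out was 36 hpf DMSO replicate 2 or any 36 hpf TCDD library. That of miR-2187 held only without replicate 2 or 3 of 36 hpf TCDD, replicate 2 of 60 hpf DMSO or replicate 1 of 60 hpf TCDD. The adjusted p without the others rose to at most 0.131 for miR-734 and 0.163 for miR-2187. Both calls also ended with upper quartile scaling (adjusted p = 0.0510 for miR-734 and 0.139 for miR-2187) and with a replicate block (0.0678 and 0.0742). The stricter filter ended that of miR-734 (0.0533) and limma-voom that of miR-2187 (0.0514). The call of miR-734* ended without 36 hpf TCDD replicate 1 (0.0757) or 2 (0.0509). In turn, 7 of 24 alternatives called miR-734 in TCDD embryos, and 4 of 23 called miR-734* in DMSO embryos. DESeq2, limma-voom and the likelihood ratio test were among them for both arms. Total count scaling called miR-734 and miR-2187 in TCDD embryos.

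miR-2191, within the ubiquitin ligase gene marchf9, rose in TCDD embryos from 72.4, 64.7 and 119 CPM to 230, 257 and 223 CPM (log2 fold change 1.48, SE 0.38, edgeR adjusted p = 0.0191). In DMSO embryos it went from 60.4, 58.5 and 120 CPM to 165, 104 and 169 CPM, with overlap, and did not pass (0.87, SE 0.38, edgeR adjusted p = 0.143). The difference between these changes was 0.61 (SE 0.53) and did not pass (edgeR adjusted p = 0.994). Its TCDD call ended without 36 hpf TCDD replicate 1 or 2 or 60 hpf TCDD replicate 2 (adjusted p = 0.0757, 0.0804 and 0.0633). Leaving out 36 hpf DMSO replicate 3, edgeR called its rise in DMSO embryos (adjusted p = 0.0405).

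**Figure D3:**
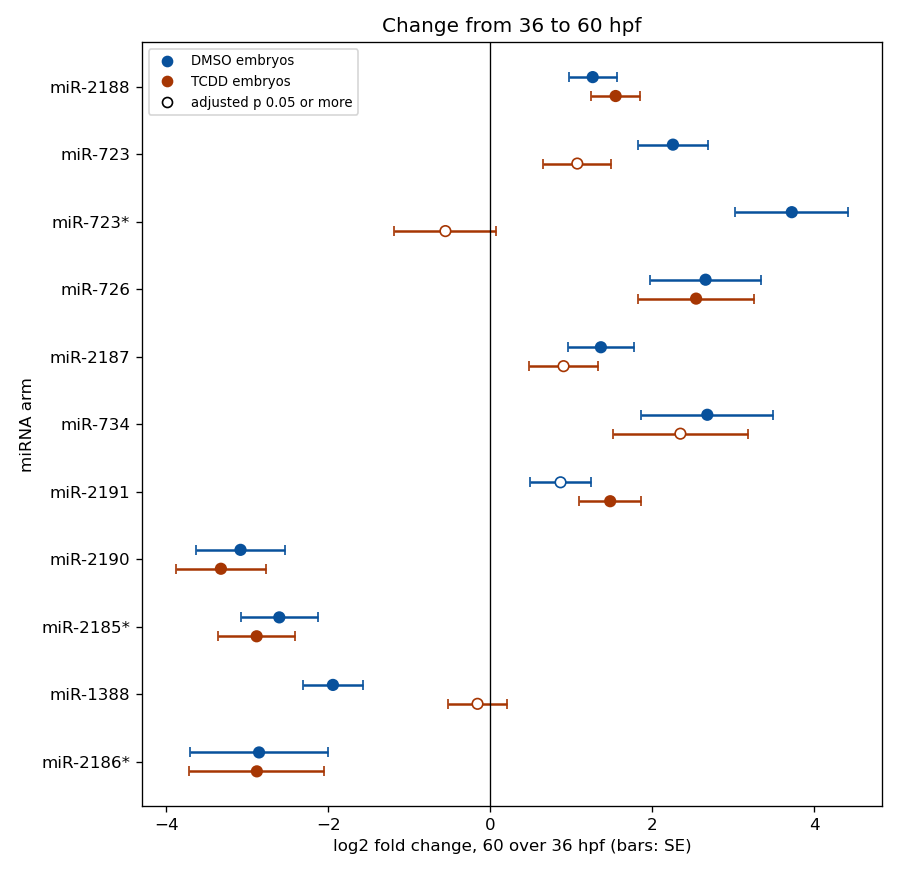
Log2 fold change from 36 to 60 hpf with its SE for 11 of the 12 arms, in DMSO and in TCDD embryos. Filled points passed the edgeR test. miR-734*, listed at 0 in 36 hpf TCDD embryos, is left out. Values of both treatments lie close together for miR-2190, miR-2185* and miR-2186*, and apart for miR-723* and miR-1388.

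The arms that fell included miR-2190. It stood at 300.4, 146 and 114 CPM in 36 hpf DMSO embryos and at 13.1, 24.4 and 28.2 CPM at 60 hpf (log2 fold change -3.09, SE 0.55, edgeR adjusted p = 0.00368). In TCDD embryos it fell from 129, 240.0 and 354 CPM to 20.8, 15.4 and 35.1 CPM (-3.33, SE 0.56, adjusted p = 0.00301). The highest library of 60 hpf lay far below the lowest of 36 hpf in both. miR-2190* went from 62.8 ± 25.3 to 40.5 ± 10.6 CPM in DMSO embryos and from 74.3 ± 27.8 to 30.3 ± 7.39 CPM in TCDD embryos (SD, n = 3 each), and passed in neither. DESeq2 and edgeR's likelihood ratio test called it in TCDD embryos, as did edgeR without 36 hpf TCDD replicate 1.

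miR-2185*, whose loci include those within pimr60 and pimr62, fell from 88.9, 74.6 and 54.3 CPM to 11.7, 11.4 and 12.3 CPM in DMSO embryos (log2 fold change -2.61, SE 0.47, edgeR adjusted p = 0.00374). In TCDD embryos it fell from 34.5, 88.4 and 116 CPM to 11.6, 6.48 and 13.6 CPM (-2.89, SE 0.48, adjusted p = 0.00289). These groups do not overlap either. The unstarred arm miR-2185 was near its floor, at 0 to 8.02 CPM at 36 hpf and 1.12 to 3.93 CPM at 60 hpf. miR-2186*, whose hairpin has the placode genes dlx3b and dlx4b as its nearest coding genes, rested on 54 counts in all. This arm reached the level needed for testing only in libraries of 36 hpf, which limits its p-values. It fell from 6.71, 7.22 and 2.94 CPM to 0, 1.18 and 0.973 CPM with DMSO (-2.86, SE 0.85, edgeR adjusted p = 0.0382) and from 2.59, 9.47 and 12.4 CPM to 0.514, 1.22 and 1.15 CPM with TCDD (-2.88, SE 0.83, adjusted p = 0.0306). Its DMSO call ended in 7 of 12 omissions, all those but of 36 hpf DMSO replicate 3, the 36 hpf TCDD libraries and 60 hpf TCDD replicate 1. Its TCDD call ended in 5 of 12, those of 36 hpf TCDD replicates 2 and 3 and of each 60 hpf TCDD library. The adjusted p rose to at most 0.110 and 0.109. With total count scaling it was 0.0502 in TCDD embryos.

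Libraries of TCDD embryos with one number deviated together at both times, so the change with time in TCDD embryos was also fitted with the replicate number as a block within each treatment. That block ended the TCDD calls of miR-2186* (adjusted p = 0.0541) and miR-734* (0.0909), and left 5 of the 7. In DMSO embryos it ended the calls of miR-2186* (0.0703), miR-2187 (0.125) and miR-734 (0.0768). Without both TCDD libraries numbered 3, the TCDD calls of miR-2186* (0.139), miR-726 (0.0692) and miR-734* (0.0639) ended, as did the DMSO calls of miR-2186* (0.0569) and miR-2187 (0.0547). The same omission gained a call of miR-737, lower at 60 hpf in TCDD embryos.

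miR-1388, which lies near uckl1b, a uridine kinase gene, fell in DMSO embryos. It stood at 31.9, 29.7 and 21.4 CPM at 36 hpf and at 8.66, 6.68 and 5.84 CPM at 60 hpf (log2 fold change -1.94, SE 0.37, edgeR adjusted p = 0.00433). In TCDD embryos it stood at 16.4, 26.8 and 27.2 CPM and at 17.0, 17.0 and 27.9 CPM, and its log2 fold change was -0.16 (SE 0.36, edgeR adjusted p = 0.798), or 0.31 with total count scaling. At 60 hpf every TCDD library thus lay above every DMSO library. The value for TCDD against DMSO at that time was 1.54 (SE 0.36, edgeR adjusted p = 0.171), and the difference between the times was 1.79 (SE 0.51, adjusted p = 0.407). Neither passed edgeR's quasi-likelihood test. DESeq2 called both (adjusted p = 0.00106 and 0.0358), and edgeR's likelihood ratio test the first (0.0192). Over the alternatives the adjusted p ran from 0.00106 to 0.432 at 60 hpf and from 0.0358 to 0.985 for the difference. These comparisons share the 60 hpf DMSO libraries, in which the arm was low.

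miR-723* had the reverse order of groups, at far lower counts. It stood at 0, 1.60 and 1.17 CPM in 36 hpf DMSO embryos and rose to 17.0, 16.5 and 12.3 CPM at 60 hpf (log2 fold change 3.72, SE 0.70, edgeR adjusted p = 0.00433). TCDD embryos had 8.62, 6.32 and 0 CPM at 36 hpf, which is 10, 4 and 0 counts. At 60 hpf they had 2.83, 4.46 and 4.39 CPM, all below the DMSO libraries. The values for TCDD against DMSO were 2.31 (SE 0.78, edgeR adjusted p = 0.996) at 36 hpf and -1.96 (SE 0.55, adjusted p = 0.262) at 60 hpf. Their difference of -4.28 (SE 0.95) had the smallest p-value of all 410 miRNAs and did not pass (edgeR adjusted p = 0.388). Without 36 hpf TCDD replicate 3, the shallowest library and the TCDD library with no count, edgeR gave -4.57 and an adjusted p of 0.0176. The arm also had no count in 36 hpf DMSO replicate 1, which was kept there. DESeq2 (adjusted p = 0.000240) and the likelihood ratio test (0.000421) called the difference with all libraries kept, and also the value at 60 hpf (4.63e-05 and 0.00122). Over the alternatives that tested it, the adjusted p ran from 0.000240 to 0.985 for the difference and from 4.63e-05 to 0.641 at 60 hpf. From 36 to 60 hpf in TCDD embryos the value was -0.56 (SE 0.63, adjusted p = 0.579). miR-723* reached the level needed for testing in enough libraries only at 60 hpf, which limits its p-values.

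TCDD against DMSO gave no call among these arms at 36 hpf. By edgeR's quasi-likelihood test 0 of 37 passed and 1 had an unadjusted p under 0.05 (2.70%, against 4.15% of all miRNAs). DESeq2, limma-voom and the likelihood ratio test called 0 as well. Over all 410 miRNAs the share called was 0%. Of the 37 arms 23 had positive values (62.2%, against 54.6% of all miRNAs), with a median log2 fold change of 0.13 beside 0.05 over all. No arm was higher without overlap (3.41% over all miRNAs) and 1 was lower (1.95% over all). That 1 arm was miR-731, of the cluster induced by hypoxia. It stood at 31.9, 16 and 16.7 CPM with DMSO and at 8.62, 12.6 and 7.42 CPM with TCDD (-1.12, SE 0.67, edgeR adjusted p = 0.996). These levels of miR-731 rest on 19, 20 and 57 counts with DMSO and only 10, 8 and 3 with TCDD. miR-462, its cluster partner, had 20.1, 27.3 and 4.70 CPM with DMSO and 1.72, 3.16 and 19.8 CPM with TCDD, with wide overlap. miR-2188 had a value of -0.59 (SE 0.29, edgeR adjusted p = 0.996) and miR-723 one of 0.45 (SE 0.42). miR-734*, the third by p-value, was listed at 0, 0 and 6 counts with DMSO and at 0 in all TCDD libraries.

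At 60 hpf, too, TCDD against DMSO gave 0 calls of 37 (edgeR quasi-likelihood), while 3 arms had an unadjusted p under 0.05 (8.11%, against 6.83% of all miRNAs). Over all miRNAs 0.244% were called higher and 0% lower. limma-voom called 0 of these arms, and DESeq2 and the likelihood ratio test 2 each, miR-1388 and miR-723*. Over all miRNAs DESeq2 called 2.44% and the likelihood ratio test 1.22%. Of the 37 arms 26 had negative values (50% of all miRNAs), for a median log2 fold change of -0.14 beside 0.00 over all miRNAs. With upper quartile or total count scaling 16 of the 37 were negative, beside 30% and 28.3% of all miRNAs. Higher without overlap were miR-1388, miR-2191 and miR-729, 3 arms or 8.11% (10.7% over all). Lower without overlap were miR-723*, miR-737 and miR-2188, also 8.11% (10.7% over all).

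miR-737, which lies within ap2m1b, a gene of the clathrin adaptor, stood at 28.8, 33.4 and 26.3 CPM with DMSO and at 4.89, 8.10 and 17.4 CPM with TCDD at 60 hpf (-1.52, SE 0.62, edgeR adjusted p = 0.647). At 36 hpf it had 16.8, 9.62 and 8.22 CPM with DMSO and 40.5, 15.8 and 4.94 CPM with TCDD (0.97, SE 0.67). Without 36 hpf TCDD replicate 1, the library at 40.5 CPM, the value at 36 hpf was 0.0096. The difference of -2.50 (SE 0.91) did not pass (edgeR adjusted p = 0.729). miR-729 stood at 4.19, 7.46 and 0.324 CPM with DMSO and at 10.5, 9.73 and 12.2 CPM with TCDD (1.45, SE 0.67, edgeR adjusted p = 0.694). Its value at 36 hpf was 0.32 (SE 0.70). Values at 60 hpf were -0.73 (SE 0.42) for miR-723, -0.31 (SE 0.29) for miR-2188 and -0.35 (SE 0.59) for miR-731. For the difference between the times, which is also the difference of development between the treatments, edgeR's quasi-likelihood test called 0 of 37 arms and 0% of all miRNAs. An unadjusted p under 0.05 was reached by 3 arms, miR-723*, miR-1388 and miR-737, or 8.11% against 4.63% of all miRNAs. limma-voom called 0 arms, the likelihood ratio test 1 (0.244% over all) and DESeq2 2 (1.46% over all).

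**Figure D4:**
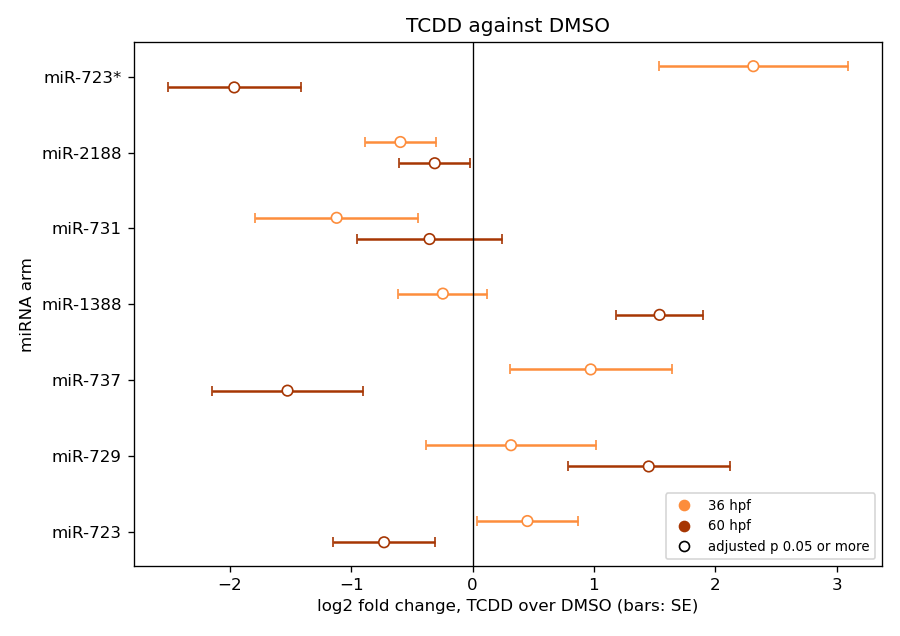
Log2 fold change of TCDD over DMSO with its SE at 36 and 60 hpf, for the 7 arms named for a TCDD comparison and not listed at 0 in a whole group. All points are open, as none passed edgeR's quasi-likelihood test. miR-723*, miR-737, miR-1388 and miR-723 have values on opposite sides of 0 at the 2 times, farthest apart for miR-723*.

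The arm that the names mark as minor was the more abundant one in 6 of the 25 hairpins with both arms, by counts summed over the libraries. For miR-727 the starred arm held 94.2% of 9509 counts, with 92.1% to 99.0% in single libraries. For miR-737 it held 92.1% of 6424 counts, and for miR-2185 88.5% of 808. In miR-723 it held 0.787% of 26162 counts. Beyond miR-724, at 64.6% of 1299 counts, the others with a larger starred arm, miR-2192 and miR-738, had only 70 and 30 counts. The vault RNA locus of miR-733 gave nearly even arms, the starred arm holding 45.0% of 1938 counts.

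The arms of miR-2190 stood in another balance at 60 than at 36 hpf, a difference that did not pass after adjustment. The starred arm held 22.8%, 20.9% and 34.8% in 36 hpf DMSO libraries and 24.6%, 27.6% and 20.1% in 36 hpf TCDD libraries. At 60 hpf it held 71.7%, 68.4% and 55.8% with DMSO and 64.9%, 61.2% and 44.4% with TCDD. All libraries of 60 hpf lay above all of 36 hpf, by 35.9 percentage points on average. The p-value was 0.005 in a two-sided exact permutation test of time within treatments, the smallest that its 400 arrangements can give. With 8 hairpins of 20 or more counts in every library and 2 comparisons each, 16 tests were made, and the adjusted p was 0.0800, which is also the smallest they can give for a single hit. None of the 16 passed after adjustment. Since the unstarred arm had been seen to fall, this share is no independent support for it. For miR-2188 the starred share was 13.5% to 28.7% in 60 hpf TCDD libraries and 3.49% to 13.4% in 60 hpf DMSO libraries. At 36 hpf it was 3.80% to 23.2% with TCDD and 1.72% to 13.5% with DMSO, with wide overlap. The difference between treatments within times, 8.16 percentage points higher with TCDD, did not pass (exact permutation p = 0.0800, adjusted p = 0.427).

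**Figure D5:**
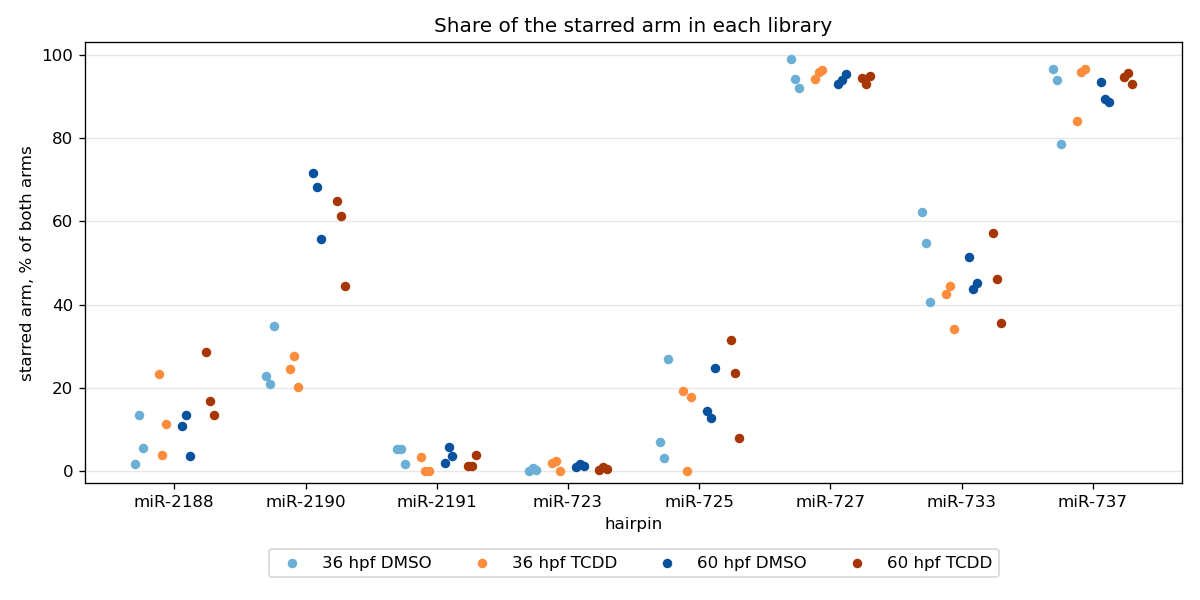
Share of the starred arm in the counts of both arms, in percent, for the 8 hairpins with at least 20 counts in every library. Each point is a library. For miR-2190 the 60 hpf points, at 44.4% and above, lie apart from those of 36 hpf, at 34.8% and below, while the points of miR-727 stay above 92%.

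Of the hairpins at loci of other RNA kinds or within muscle genes, only miR-733, miR-733* and miR-735* were tested. None of these passed edgeR's quasi-likelihood test. miR-733 stood at 47.2 ± 8.41 and 56.7 ± 15 CPM in DMSO and TCDD embryos of 36 hpf (SD, n = 3 each), and at 35.0 ± 5.62 and 30.5 ± 15.5 CPM at 60 hpf. miR-733* went from 88.9, 45.7 and 34.3 CPM to 31.9, 26.3 and 34.1 CPM in DMSO embryos and from 47.4, 31.6 and 34.6 CPM to 18.5, 28.4 and 24.4 CPM in TCDD embryos. It was lower at 60 hpf without overlap in both, with edgeR adjusted p = 0.167 and 0.244, and DESeq2 called it in DMSO embryos. miR-735*, at the Y RNA locus, ranged from 0.838 to 10.4 CPM with 99 counts in all. The arms of miR-736, in the cardiac type myosin gene myh7, had 56 and 49 counts over all libraries, and 26 of the 56 lay in 36 hpf DMSO replicate 3. miR-722, the arm with a known role in neutrophils, had 11 counts, its starred arm 8, and miR-731* 6. These last arms were not tested.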

How the data were processed

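Libraries were prepared with the SREK kit for small RNA and sequenced on SOLiD V3, per the labels' protocols. Each library has 1 table of raw read counts, as deposited by the authors, per miRNA arm or Ensembl transcript. Only features with a count are listed, and a missing feature was taken as 0. The submitters' processing notes name edgeR, without a role. The aligner, annotation and genome build, not given in the sources used here, are unknown.

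The 1797 transcript rows (1.20% to 5.35% of counts) were left out of library sizes. Copies of one arm with at least 80% of the leading copy's total were counted once, which left 464 features of 699 rows. edgeR 4.0.16 (limma 3.58.1, R 4.3.3) was run on all 12 libraries: filterByExpr (minimum count 10, total 15; 410 kept), TMM, a model of 4 group means, glmQLFit with robust=TRUE and glmQLFTest for 5 contrasts, with Benjamini-Hochberg adjustment over all 410. The SE is the log2 fold change over the square root of F. The code was tested on simulated data. Library pairs of a group differed far beyond sampling noise (chi-square over degrees of freedom 194 to 1583).

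Members, lists and tests were chosen with earlier results of these data known. Named arms are all calls of a contrast, filled up to 4 by smallest p, the 6 most abundant, their partner arms, and miR-722, miR-726, miR-731 and miR-2188 for known roles. Further arms, and the grouping by neighbouring genes, were chosen after values were seen. Alternatives were scaling by RLE, upper quartile or total counts, dropping the filter or a stricter one (10 counts in every library of a group, mean 10 CPM), DESeq2 1.42.0, limma-voom, the likelihood ratio test, summed copies, replicate blocks, each library left out, and both TCDD libraries numbered 3 left out. Same-numbered TCDD libraries deviated together between the times (correlations of deviations from group means 0.25, 0.26 and 0.42), which no other pair of groups did for all 3 numbers. Whether the numbers mark a shared clutch or batch is not given. The block within treatments and the tests of arm shares were added after the data were seen.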

Additional observations from a re-analysis of the deposited data

How the results depend on the processing

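TCDD against DMSO at 36 hpf gave 0 calls among these arms in every alternative. At 60 hpf DESeq2 and the likelihood ratio test gave 2 each and all others 0, and for the difference between the times DESeq2 gave 2, the likelihood ratio test 1 and the rest 0, apart from 1 without 36 hpf TCDD replicate 3 (range 0 to 1 over omissions). For development, 10 arms were called in DMSO embryos and 17 by DESeq2 (which called 29.3% of all miRNAs). With a library left out 6 to 12 were called, beside 12.8% to 20.6% of all miRNAs. The count was 6 without 36 hpf DMSO replicate 1 or 2, 60 hpf DMSO replicate 3 or 60 hpf TCDD replicate 2. In TCDD embryos 7 were called, 13 by DESeq2 (33.2% of all miRNAs) and 12 with total count scaling (26.8% of all). With a library left out 4 to 8 were called there, beside 13.7% to 20.7% of all miRNAs, the 4 without 36 hpf TCDD replicate 2. Calls in all alternatives were those of miR-2190, miR-2185*, miR-1388 and miR-723 in DMSO and of miR-2190, miR-2185* and miR-2188 in TCDD embryos. miR-723* in DMSO was called in all 23 that tested it. The replicate block gave 8 arms in DMSO (15.1% of all miRNAs) and 7 in TCDD embryos (19.5% of all). The block within treatments gave 7 (13.2% of all) and 5 (14.6% of all). That block gives no value for TCDD against DMSO at a single time, since treatment and block then overlap.

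Reversed values were 0.31 for miR-1388 from 36 to 60 hpf in TCDD embryos with total count scaling and, with a library left out, -0.14 for miR-729 at 36 hpf (without 36 hpf TCDD replicate 2; range -0.14 to 0.63) and 0.012 for miR-723* in TCDD embryos (without 36 hpf TCDD replicate 1; range -0.97 to 0.012). Total count scaling moved the median miRNA to 0.31 for TCDD at 60 hpf and to 0.53 for development in TCDD embryos, and upper quartile scaling to 0.26 and 0.03. The causes were not tested. Summed levels in 36 hpf DMSO embryos were 3466 CPM with RLE, 3584 with upper quartile, 3113 with total count scaling and 2677 with summed copies, and 3319 to 3647 with a library left out. For 36 hpf TCDD they were 3481 (upper quartile), 2880 (total), 2452 (summed copies) and 3162 to 3471. For 60 hpf DMSO they were 5940 (upper quartile), 5343 (summed copies) and 6454 to 7250, and for 60 hpf TCDD 7117 (total), 4729 (summed copies) and 5523 to 5889. Depth limits the arms below about 10 CPM most, chiefly in the 36 hpf TCDD libraries.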
